A study of Mus musculus with 4 samples.

Results

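Fibrillins, fibulins, latent TGF-beta binding proteins and elastin were followed as 10 genes (Fbn1, Fbn2, Fbln1, Fbln2, Fbln5, Ltbp1, Ltbp2, Ltbp3, Ltbp4 and Eln), taken by symbol from the 32285 genes counted. The material was bone marrow from C57BL/6 animals aged 12 days after birth, profiled as single-cell 3′ libraries. Live cells negative for CD45 and Ter119 were sorted from 3 mutant and 3 control mice, and the cells were deposited as 2 mutant and 2 control libraries. Mutant 1 is labelled Prx1-cre;Mettl3-fl/fl and mutant 2 only as mutant, while the genotype of both control libraries is given only as control and says nothing of floxed alleles or Cre. Prx1-cre is active in limb mesenchyme, which gives rise to marrow stroma and bone, and the Mettl3 protein is the enzyme that writes N6-methyladenosine on RNA. No source used here ties mice to libraries, so each p-value below reflects library-to-library spread, which can be technical in part. In the tests of counts, part or all of that spread is estimated from many genes together.

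Fibrillins are the large glycoproteins that polymerise into microfibrils, the thin extracellular filaments of connective tissue. Fibulins are smaller proteins that bind to microfibrils, basement membranes and elastin, and fibulin 5 helps to organise elastic fibres, in which cross-linked elastin is laid down on a microfibril scaffold. Latent TGF-beta binding proteins share the cysteine-rich domains of fibrillins. LTBP1, LTBP3 and LTBP4 bind the latent TGF-beta complex and tether it to the matrix, whereas LTBP2 does not bind latent TGF-beta and associates with microfibrils. In bone, matrix-held TGF-beta takes part in the coupling of resorption to formation.

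Cells were kept with 1000 UMIs or more, 500 genes or more and no more than 10% of UMIs from mitochondrial genes: 2628 and 4587 cells remained in mutant 1 and mutant 2, and 5808 and 3635 in control 1 and control 2. The libraries held 47390414 and 81890483 UMIs in the mutants and 116863081 and 114143361 UMIs in the controls. The libraries shared 2 to 10 cell barcodes pairwise. A cell was gated into a class when at least 3 of that class's markers had a UMI and the count led the next class by at least 2 markers. The mesenchymal, endothelial and erythroid lists held 10 markers each, and the other lists held fewer. Endothelial cells with a UMI of at least 3 of 10 arterial markers were called arterial, with no lead required. This gave 37 and 13 stromal cells in the mutants against 997 and 46 in the controls, and 1881 and 1259 bone cells in the mutants against 264 and 41 in the controls. Endothelial cells apart from arterial ones numbered 33 and 819 in the mutants against 24 and 525 in the controls, and arterial ones 17 and 121 against 5 and 28. Levels are given as CPM, UMIs scaled to a common total of the class in a library, with replicate 1 before replicate 2 of a genotype. None of the 10 genes was used for gating. Mettl3 was measured at 3.83 and 6.01 CPM in mutant bone cells against 6.73 and 8.46 CPM in control bone cells; 3′ tags may lie outside the deleted part, so this level may check nothing about the deletion.

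The gates matched their names unevenly. The 10 stromal markers summed to 7522 and 10540 CPM in mutant stromal cells, against 35760 and 33190 CPM in control stromal cells. The sum was thus lower in both mutants. No stromal marker was at 0 in any of the 4 libraries. The stromal marker Lepr was at 231.5 and 222 CPM in mutant stromal cells against 1193 and 989 CPM in control ones. The 10 perivascular and smooth muscle markers summed to 728 and 793 CPM in mutant stromal cells against 357 and 296 CPM in control ones. Among these, Tagln was at 314 and 172 CPM against 13.8 and 20.6 CPM, and Acta2 at 234 and 390 CPM against 2.21 and 5.87 CPM. The 7 neutrophil markers summed to 61.7 and 36190 CPM in mutant stromal cells against 2965 and 38.2 CPM in control ones, so in mutant 2 they exceeded the stromal markers. In arterial cells they summed to 65.2 and 24070 CPM in the mutants against 0 and 23.4 CPM in the controls, and the 10 erythroid markers to 32.6 and 8478 CPM against 359 and 697.5 CPM. The 10 arterial markers summed to 1067 and 515 CPM in those cells of the mutants against 3010 and 571 CPM in the controls. The part of these genes in the stromal and arterial values below was not tested. In arterial cells the arterial marker Gja5 was at 0 and 3.31 CPM in the mutants against 55.2 and 2.93 CPM in the controls, and Stab2, a sinusoidal scavenger receptor, was still at 111 CPM in mutant 2 and at 361 CPM in control 2. That gate is therefore called arterial only by its marker rule.

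3 windows around gene starts are shown because their genes carry the clearest patterns below: Fbn1 and Ltbp2 for the stromal cells, and Fbln2 for the endothelial cells. Each spans 300 bases, placed by RefSeq's own gene start on build GRCm38.p6, most of them before it, and written 5′ to 3′ on the gene's strand. The GENCODE M21 starts given below differ from these: for Fbn1 and Fbln2 the whole window lies after the GENCODE start. The RefSeq windows matched 8 of the 10 genes by symbol. Capitals mark matches to the GC box GGGCGG on either strand.
Fbn1 (chr2:125506389-125506688, minus strand): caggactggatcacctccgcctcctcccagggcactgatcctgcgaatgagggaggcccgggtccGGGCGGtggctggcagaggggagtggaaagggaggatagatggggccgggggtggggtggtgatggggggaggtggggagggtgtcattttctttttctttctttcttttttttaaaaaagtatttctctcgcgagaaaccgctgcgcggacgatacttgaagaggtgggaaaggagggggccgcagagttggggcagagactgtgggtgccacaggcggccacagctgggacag
Ltbp2 (chr12:84876442-84876741, minus strand): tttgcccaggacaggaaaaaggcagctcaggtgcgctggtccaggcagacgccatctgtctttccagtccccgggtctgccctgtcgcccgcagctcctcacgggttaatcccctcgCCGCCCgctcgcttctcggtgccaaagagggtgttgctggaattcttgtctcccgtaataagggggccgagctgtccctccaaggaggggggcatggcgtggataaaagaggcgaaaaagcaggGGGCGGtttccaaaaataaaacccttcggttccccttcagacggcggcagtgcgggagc
Fbln2 (chr6:91212514-91212813, plus strand): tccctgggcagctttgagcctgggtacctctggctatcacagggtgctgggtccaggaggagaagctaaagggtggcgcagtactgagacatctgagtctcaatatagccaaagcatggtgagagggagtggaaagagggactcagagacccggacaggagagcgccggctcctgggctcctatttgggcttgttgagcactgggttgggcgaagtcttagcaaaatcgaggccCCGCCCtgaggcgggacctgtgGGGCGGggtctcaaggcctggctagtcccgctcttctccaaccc
The Fbn1 window held 1 GC box, the Ltbp2 window 2 and the Fbln2 window 2, and 35.7% of 32851 mouse windows of this length held at least 1. None of the 3 windows held TATAAA (13.6% of all windows), CCAAT (37.4%), the ETS letters CCGGAAG (8.86%), the SMAD letters CAGACA (21.0%) or the AP-1 letters TGANTCA (7.81%), each searched on both strands. The GC content was 60.3%, 61.0% and 60.3% for Fbn1, Ltbp2 and Fbln2, against a median of 52.7% over all windows. In the longest coding transcript of each gene (GENCODE M21), GGACT, a common form of the sequence methylated by the Mettl3 complex, occurred at 0.385 per kb in Ltbp3, the lowest of the 10, and at 3.63 per kb in Eln, the highest, against a median of 1.02 per kb over 21405 genes. The Eln value was above that of 99.1% of those genes.

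The members divided the tissue between them. Among mesenchymal classes, Fbn1, Fbn2, Fbln1, Fbln5 and Ltbp2 were higher in stromal than in bone cells. Bone cells exceeded endothelial cells in Fbn1 (though not in mutant 1), Fbn2, Fbln1, Ltbp1 and Ltbp3. Endothelial cells exceeded bone cells in Fbln2, Fbln5 and Ltbp4. Across the 3 libraries with at least 20 cells in both classes (mutant 1, control 1 and control 2), stromal cells were tested against bone cells with edgeR's quasi-likelihood test and library as a block. Of the 10 members 9 passed the filter on low counts; 5 were higher in stromal cells, 0 were lower and 4 did not pass, beside 28.6% of all 12034 genes called. Bone cells against endothelial cells, over all 4 libraries, gave 5 members higher, 3 lower and 1 not past the threshold among 9 tested, beside 42.6% of 12830 genes called. Arterial against other endothelial cells could be tested in mutant 2 and control 2 alone: 6 members passed the filter and 0 were called, beside 0.567% of 11112 genes (0.405% higher and 0.162% lower), and 2 of the 6, Fbn1 and Ltbp4, had an unadjusted p under 0.05 (0.0251 and 0.0232). DESeq2 also called 0 members. Each UMI stands for a captured transcript end, but capture differs between genes, so levels are compared between cells and not between genes.

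**Figure D1:**
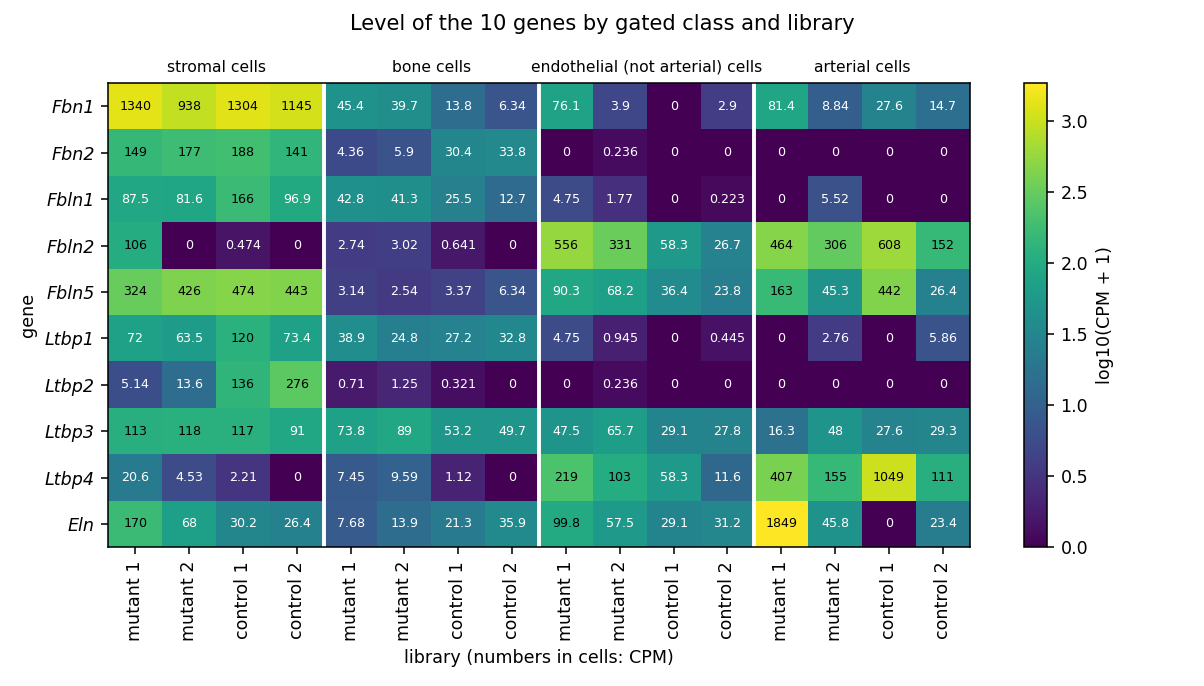
Level of each gene (rows) in stromal, bone, endothelial apart from arterial, and arterial cells of the 4 libraries (columns, mutants left of controls within each class); colour is log10(CPM + 1) and the printed numbers are CPM. Fbn1 stands at 938 to 1340 CPM in stromal cells and at 6.34 to 45.4 CPM in bone cells. Fbln2 stands at 26.7 to 556 CPM in endothelial cells apart from arterial ones and at 0 to 3.02 CPM in bone cells.

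Fibrillin 1, the main microfibril component of adult tissue (Fbn1, ENSMUSG00000027204, chromosome 2, 125300594 to 125507993, minus strand of mm10), was higher in stromal than in bone, endothelial or arterial cells of every library. It had 1340 and 938 CPM in mutant stromal cells, against 1304 and 1145 CPM in control stromal cells. The mutant values lie on either side of the control ones, so the groups overlap in this class, where no test was made because mutant 2 held 13 cells. Bone cells had 45.4 and 39.7 CPM in the mutants against 13.8 and 6.34 CPM in the controls. Both mutant values lie above both control values. Perivascular cells had 466 and 1154 CPM in the mutants (10 and 2 cells) against 577 and 150 CPM in the controls (11 and 5 cells). In mutant 2 the perivascular value was thus above the stromal one. The difference between stromal and bone cells was 5.33 ± 0.45 on the log2 scale (SE, 3 libraries, adjusted p = 2.56e-05 by edgeR's quasi-likelihood test). Bone cells stood 2.32 ± 0.60 (log2) above endothelial cells (adjusted p = 0.00743, edgeR), a call lost without mutant 2 (0.97). Endothelial cells had 76.1 and 3.90 CPM in the mutants against 0 and 2.90 CPM in the controls. In mutant 1 the endothelial value was thus above the bone value of 45.4 CPM. There 43.8% of the 16 endothelial UMIs came from 1 cell, and 44.1 CPM remained without it. With every cell thinned to 1000 UMIs, 70.3% and 61.5% of mutant stromal cells held an Fbn1 UMI, against 70.3% and 60.9% of control stromal cells. In erythroid cells, which should lack it, the thinned share was 0% and 0.601% in the mutants and 0.424% and 0.0367% in the controls.

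Fibrillin 2, the form most abundant in developing tissue (Fbn2, ENSMUSG00000024598, chromosome 18), was also higher in stromal than in bone, endothelial or arterial cells, but in bone cells it went the opposite way to Fbn1. Stromal cells had 149 and 177 CPM in the mutants against 188 and 141 CPM in the controls, values that overlap. Bone cells had 4.36 and 5.90 CPM in the mutants, from 172 and 160 UMIs, against 30.4 and 33.8 CPM in the controls, from 190 and 32 UMIs. Every mutant value lies well below every control value. Perivascular cells had 158 and 0 CPM in the mutants, from 19 and 0 UMIs, against 36.0 and 120 CPM in the controls, from 3 and 4 UMIs. In stromal cells Fbn2 stood 2.45 ± 0.54 (log2) above bone cells (adjusted p = 0.00789, edgeR). Endothelial cells held 0 and 2 UMIs in the mutants and 0 and 0 UMIs in the controls, and arterial cells 0 in every library. The floor that a count of 0 allows in control 2 endothelial cells, 3 UMIs, is 0.668 CPM.

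Fibulin 1, a binder of fibronectin and basement membrane proteins (Fbln1, ENSMUSG00000006369, chromosome 15, 85205949 to 85286535, plus strand of mm10), was spread over both mesenchymal classes. Stromal cells had 87.5 and 81.6 CPM in the mutants against 166 and 96.9 CPM in the controls. Both mutant values lie below both control values, and the exact two-sided permutation p of the thinned share of cells was 0.333, the smallest that 2 libraries against 2 allow. Bone cells had 42.8 and 41.3 CPM in the mutants against 25.5 and 12.7 CPM in the controls, groups that do not overlap. Stromal cells exceeded bone cells by 1.37 ± 0.32 on the log2 scale (adjusted p = 0.0109, edgeR), a call lost without control 1 or without control 2, with values of 1.10 to 1.87 over all alternatives. In endothelial cells the gene reached at most 15 UMIs in any library.

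Fibulin 2, a matrix protein of vessels, heart valves and precartilage (Fbln2, ENSMUSG00000064080, chromosome 6, 91212455 to 91272540, plus strand of mm10), was higher in endothelial than in stromal, bone or perivascular cells of every library. Endothelial cells apart from arterial ones had 556 and 331 CPM in the mutants, from 117 and 2799 UMIs, against 58.3 and 26.7 CPM in the controls, from 8 and 120 UMIs. The lower mutant value is several times the higher control value. Bone cells had 2.74 and 3.02 CPM in the mutants against 0.641 and 0 CPM in the controls. Bone cells stood 6.42 ± 0.34 (log2) below endothelial cells (adjusted p = 3.38e-08, edgeR). Arterial cells had 464 and 306.5 CPM in the mutants against 608 and 152 CPM in the controls, and these overlap; 22 UMIs in 5 cells stand behind the value of control 1. Stromal cells had 106 and 0 CPM in the mutants against 0.474 and 0 CPM in the controls, and 4 of the 37 stromal cells of mutant 1 held all of its 41 UMIs. Perivascular cells had 125 and 0 CPM in the mutants, from 15 and 0 UMIs, against 0 and 0 CPM in the controls. Of all Fbln2 UMIs in kept cells, endothelial cells apart from arterial ones held 17.3% and 79.1% in the mutants and 9.2% and 62.2% in the controls. Cells assigned to no mesenchymal or endothelial class held 47.5% and 2.9% in the mutants and 57.5% and 10.9% in the controls.

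Fibulin 5, an organiser of elastic fibres (Fbln5, ENSMUSG00000021186, chromosome 12, 101746565 to 101819055, minus strand of mm10), was found in stromal and endothelial cells and was low in bone. Stromal cells had 324 and 426 CPM in the mutants against 474 and 443 CPM in the controls. Both mutant values lie below both control values, and no test was made. Bone cells had 3.14 and 2.54 CPM in the mutants against 3.37 and 6.34 CPM in the controls, the last from a single cell. Stromal cells stood 5.96 ± 0.33 (log2) above bone cells (adjusted p = 4.72e-06, edgeR), and bone cells stood 3.47 ± 0.47 below endothelial cells (log2 difference -3.47, adjusted p = 5.96e-05, edgeR).

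LTBP1, which tethers the latent TGF-beta complex (Ltbp1, ENSMUSG00000001870, chromosome 17, 75005568 to 75392512, plus strand of mm10), had 72.0 and 63.5 CPM in mutant stromal cells against 120 and 73.4 CPM in control stromal cells, with no overlap. In bone cells it had 38.9 and 24.8 CPM in the mutants against 27.2 and 32.8 CPM in the controls, and the groups overlap. Stromal and bone cells did not differ past the threshold (log2 difference 0.67 ± 0.28, adjusted p = 0.0990, edgeR), while bone cells stood 5.66 ± 0.44 above endothelial cells (adjusted p = 4.66e-07). Endothelial cells held 1 and 8 UMIs in the mutants against 0 and 2 in the controls. Erythroid cells, although sorted against, had 0.677 and 2.25 CPM in the mutants against 1.91 and 3.13 CPM in the controls.

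LTBP2, the microfibril-associated member that holds no latent TGF-beta (Ltbp2, ENSMUSG00000002020, chromosome 12, 84783212 to 84876532, minus strand of mm10), came mostly from stromal cells in the controls. Control 1 had 858 UMIs in 997 stromal cells and control 2 had 94 UMIs in 46, whereas mutant 1 had 2 UMIs in 37 cells and mutant 2 had 3 in 13. As levels these are 5.15 CPM in mutant 1 (exact 95% Poisson interval 0.623 to 18.6) and 13.6 CPM in mutant 2 (2.80 to 39.7), against 136 CPM in control 1 (127 to 145) and 276 CPM in control 2 (223 to 338). The intervals of the mutants do not reach those of the controls; they cover counting error only. At 1000 UMIs per cell 0% of the stromal cells of both mutants held a UMI (upper limits 9.49% and 24.7%), against 12.5% and 21.7% of control stromal cells. The exact permutation p was 0.333, the smallest this design allows. Of all Ltbp2 UMIs in kept cells, 92.8% and 86.2% came from stromal cells in the controls, and 4.08% and 5.46% in the mutants. In the same mutant cells the summed stromal markers were lower and the summed smooth muscle markers higher, as given above. The part of these markers in the Ltbp2 difference was not tested. Of the other members, Fbn1, Fbn2, Fbln2 and Ltbp3 overlapped between the genotypes in stromal cells. Fbln1, Fbln5 and Ltbp1 were lower in both mutants than in both controls. Their mutant counting intervals reach those of control 2 (46 cells). For Fbln1 and Ltbp1 neither mutant interval reaches that of control 1, and for Fbln5 only that of mutant 2 does. Eln and Ltbp4 were higher in both mutants, Ltbp4 at 20.6 and 4.53 CPM (8 and 1 UMIs) against 2.21 and 0 CPM (14 and 0 UMIs). The Ltbp4 counting interval of mutant 2, 0.115 to 25.25 CPM, reaches those of both controls (1.21 to 3.71 and 0 to 10.8 CPM). No direction can therefore be read from mutant 2 for Ltbp4. How many of all genes separate the genotypes in this class was not counted.

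LTBP3, a binder of latent TGF-beta needed for bone and tooth growth in mice (Ltbp3, ENSMUSG00000024940, chromosome 19, 5740904 to 5758532, plus strand of mm10), was measured in all 4 classes of every library. Stromal cells had 113 and 118 CPM in the mutants against 117 and 91.0 CPM in the controls, and the groups overlap. Bone cells had 73.8 and 89.0 CPM in the mutants against 53.2 and 49.7 CPM in the controls, which do not overlap but missed the threshold (log2 difference 0.45 ± 0.22, adjusted p = 0.142, edgeR). Stromal minus bone cells came to 0.09 ± 0.22 on the log2 scale (adjusted p = 0.804, edgeR), and bone minus endothelial cells to 1.39 ± 0.25 (adjusted p = 5.72e-04). Chondrocytes, from 11 to 24 cells per library, had 109 and 85.0 CPM in the mutants against 121 and 227 CPM in the controls.

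LTBP4, which takes part in elastic fibre assembly with fibulin 5 (Ltbp4, ENSMUSG00000040488, chromosome 7, 27305136 to 27337692, minus strand of mm10), followed the endothelial pattern of Fbln2. Endothelial cells had 219 and 103 CPM in the mutants against 58.3 and 11.6 CPM in the controls, and arterial cells had 407 and 155 CPM in the mutants against 1049 and 111 CPM in the controls. The non-arterial groups do not overlap and the arterial ones do. Bone cells had 7.45 and 9.59 CPM in the mutants against 1.12 and 0 CPM in the controls. Bone cells stood 3.62 ± 0.34 below endothelial cells (log2 difference -3.62, adjusted p = 2.90e-06, edgeR).

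Elastin, the core protein of elastic fibres (Eln, ENSMUSG00000029675, chromosome 5, 134702593 to 134747323, minus strand of mm10), rested on single cells in some of its class sums. It was more widely held in others. An Eln UMI was found in 270 of 819 endothelial cells of mutant 2, 97 of 525 of control 2 and 143 of 997 stromal cells of control 1. Stromal cells had 170 and 68.0 CPM in the mutants against 30.2 and 26.4 CPM in the controls, but 1 cell held 54.5% of the 66 UMIs of mutant 1. Without the highest cell of each library the values are 80.3 and 49.7 CPM in the mutants and 27.7 and 14.9 CPM in the controls. Arterial cells had 1849 and 45.8 CPM in the mutants against 0 and 23.4 CPM in the controls; 74.5% of the 227 UMIs of mutant 1 came from 1 cell, and 488 CPM remained without it. The class that holds most Eln per UMI is therefore not settled by these libraries.

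**Figure D2:**
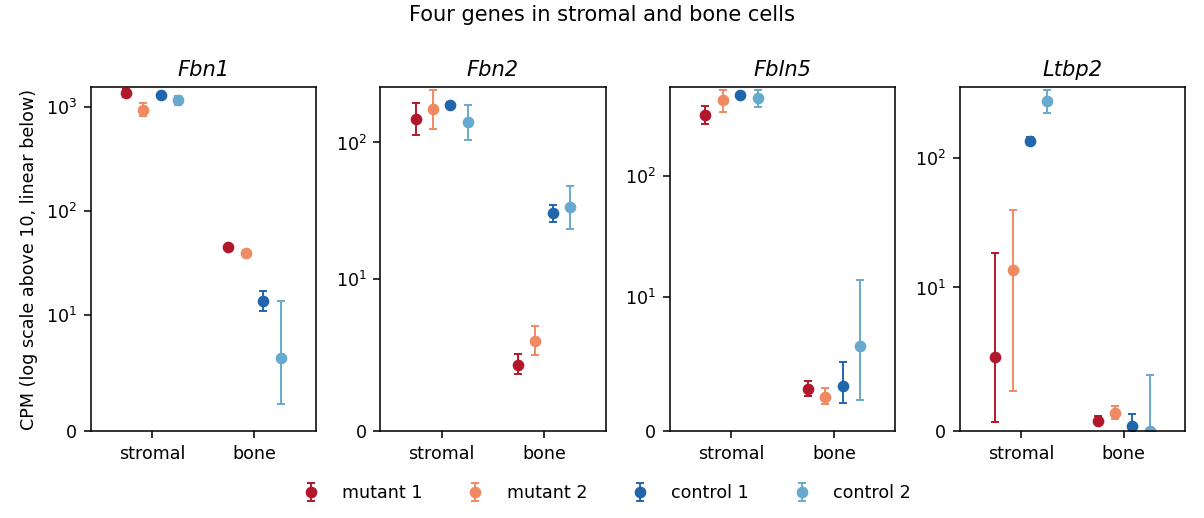
CPM of Fbn1, Fbn2, Fbln5 and Ltbp2 in stromal and bone cells, with 1 point per library and exact 95% Poisson intervals (counting error only); the axis is logarithmic above 10 and linear below. In stromal cells Ltbp2 is at 5.15 and 13.6 CPM in the mutants against 136 and 276 CPM in the controls, while the points of Fbn1 lie together.

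Within bone cells the genotypes were compared with processing version and genotype as terms. All 10 members passed the filter on low counts: 4 were higher in mutant cells, 2 lower and 4 did not pass, beside 22.3% of 12922 genes called (12.7% higher and 9.60% lower). Fbn1 was higher in mutant bone cells by 1.78 ± 0.27 on the log2 scale (adjusted p = 8.48e-06, edgeR), a call lost without control 1 or without control 2 (values over all alternatives 1.39 to 2.66). Fbn2 was lower, with a log2 difference of -2.86 ± 0.25 (adjusted p = 2.37e-10), and kept its call under all 11 alternatives, with values of -2.93 to -2.73. Ltbp4 was higher by 2.90 ± 0.53 (adjusted p = 1.25e-04, lost without control 1), and the control value rests on 7 and 0 UMIs. Fbln1 was higher by 0.87 ± 0.25 (adjusted p = 0.0121) and Fbln2 by 2.22 ± 0.78 (adjusted p = 0.0375), calls lost under 5 and 6 of 11 alternatives. Fbln5, Ltbp1, Ltbp2 and Ltbp3 did not pass. In the same cells the osteoblast marker Bglap was at 3181 and 5375 CPM in the mutants against 18730 and 44140 CPM in the controls, the tendon and fibroblast markers summed to 123 and 95.01 CPM against 46.96 and 21.1 CPM, and the neutrophil markers to 394 and 4849 CPM against 5.29 and 6.34 CPM; their part in the member differences was not tested. The control side is thin: 41 bone cells in control 2, and the number of genes called fell to 20 without control 1 and 243 without control 2.

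The Eln call in bone depends on single cells. Bone cells had 7.68 and 13.9 CPM in the mutants against 21.3 and 35.9 CPM in the controls, a log2 difference of -1.61 ± 0.24 (adjusted p = 6.86e-06, edgeR). In control 1 a single cell held 39.1% of the 133 UMIs, and in control 2 a single cell held 91.2% of 34. With the highest cell of each library left out, an alternative added after the data were seen, the values are 6.95 and 13.1 CPM in the mutants against 13.0 and 3.23 CPM in the controls, and the difference is -0.41 (adjusted p = 0.438). The groups then overlap.

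Bone cells were split by 3 short marker lists into progenitor-like, mature osteoblast and osteocyte-like cells, with cells that tied left apart. The mutants had 307 and 81 progenitor-like cells and the controls 38 and 4; mature osteoblasts numbered 878 and 698 in the mutants and 183 and 26 in the controls. Fbn1 had 129 and 125 CPM in progenitor-like cells of the mutants against 35.3 and 16.2 CPM in those of the controls, and 32.6 and 33.7 CPM in mature osteoblasts of the mutants against 11.4 and 2.90 CPM in the controls. Both mutant values lie above both control values in both of these subsets, although the control 2 values rest on 1 and 2 UMIs. In osteocyte-like cells Fbn1 had 29.1 and 11.7 CPM in the mutants against 4.79 and 35.9 CPM in the controls, from 1 and 2 control UMIs, and the groups overlap. Fbn2 had 4.58 and 6.68 CPM in mature osteoblasts of the mutants against 37.2 and 40.5 CPM in the controls, and in progenitor-like cells 6.53 and 10.4 CPM in the mutants against 3.65 and 0 CPM in the controls. In mature osteoblasts both mutant values lie below both control values. The progenitor-like control values rest on 3 and 0 UMIs (exact 95% Poisson intervals 0.752 to 10.7 and 0 to 59.7 CPM), so no direction can be read there. Ltbp3 was highest in osteocyte-like cells, with 203 and 254 CPM in the mutants against 163 and 216 CPM in the controls. Eln had 0.938 and 5.34 CPM in osteocyte-like cells of the mutants (297 and 185 cells) against 201 and 557 CPM in those of the controls (14 and 5 cells). These are 42 of the 133 bone Eln UMIs of control 1, where tied cells held 72, and 31 of the 34 of control 2, as many as its highest cell held. No test was made on the subsets.

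**Figure D3:**
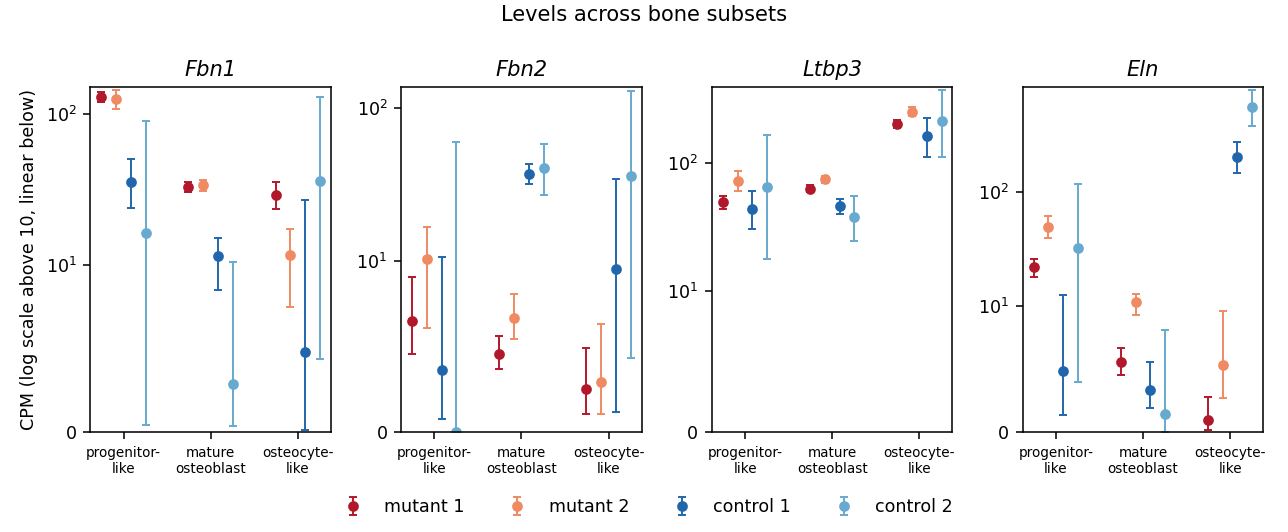
CPM of Fbn1, Fbn2, Ltbp3 and Eln in progenitor-like, mature osteoblast and osteocyte-like bone cells, with 1 point per library (mutants left of controls) and exact 95% Poisson intervals; the axis is logarithmic above 10. In mature osteoblasts Fbn2 stands at 4.58 and 6.68 CPM in the mutants against 37.2 and 40.5 CPM in the controls.

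In endothelial cells apart from arterial ones, 5 of the 10 members passed the filter on low counts, and all 5 of those were higher in mutant cells, beside 5.81% of 10710 genes called (2.75% higher and 3.06% lower). A gene passes the filter through either genotype, so this count is a description. Fbln2 was higher in mutant endothelial cells by 3.56 ± 0.25 on the log2 scale (adjusted p = 8.11e-42, edgeR) and kept its call under all 11 alternatives, with values of 2.85 to 4.17. Ltbp4 was higher by 2.89 ± 0.30 (adjusted p = 6.40e-20, lost without control 2, with values of 1.32 to 3.84). Fbln5 had 90.3 and 68.2 CPM in the mutants against 36.4 and 23.8 CPM in the controls, a difference of 1.49 ± 0.32 (adjusted p = 1.44e-04, lost under 3 alternatives), and Ltbp3 had 47.5 and 65.7 CPM against 29.1 and 27.8 CPM, a difference of 1.18 ± 0.33 (adjusted p = 0.00892, lost under 5). Eln had 99.8 and 57.5 CPM in the mutants against 29.1 and 31.2 CPM in the controls, a difference of 1.03 ± 0.31 (adjusted p = 0.0217). Of the 21 Eln UMIs of mutant 1, 81.0% came from 1 cell, and without the highest cells the call is lost (0.83, adjusted p = 0.190). The estimated prior degrees of freedom were infinite here, so genes of like abundance share a spread and the small p-values rest on that.

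Other values moved with this difference. Stab2, a marker of sinusoids, was at 152 and 300 CPM in mutant endothelial cells against 961 and 1007 CPM in control ones, and Plvap, found on fenestrated endothelium, at 1640 and 1591 against 1121 and 933 CPM. Col1a1, a bone and fibroblast gene, was at 209 and 1482 CPM in mutant endothelial cells against 58.3 and 17.6 CPM in the controls, and the 10 bone markers summed to 128 and 628 CPM against 29.1 and 20.04 CPM, with 3 and 0 of them at 0 in the mutants against 8 and 2 in the controls. The neutrophil markers summed to 105 and 6278 CPM in mutant endothelial cells against 0 and 26.3 CPM in the controls. The part of these genes in the member differences was not tested. In endothelial cells with at least 1 Stab2 UMI Fbln2 had 320 and 290 CPM in the mutants (7 and 558 cells) against 17.7 and 13.6 CPM in the controls (19 and 500 cells). Of the 15 UMIs of mutant 1, 10 came from 1 cell, and 128 CPM remained without it; control 1 had 2 UMIs. Fbln5 had 85.2 and 73.6 CPM in those cells of the mutants against 26.6 and 24.1 CPM in the controls, and Ltbp4 0 and 78.9 CPM against 0 and 6.31 CPM. No test was run on these cells, which were chosen on Stab2, itself lower in both mutants. With cells thinned to 1000 UMIs, 30.3% and 26.0% of mutant endothelial cells held an Fbln2 UMI against 4.17% and 1.33% of control ones (exact permutation p = 0.333). Erythroid cells, a background reading, gave 0% and 0.300% in the mutants and 0.0249% and 0.0367% in the controls. In barcodes of 10 to 100 UMIs, a reading of free RNA, Fbln2 was at 17.1 CPM in mutant 2 against 1.01 CPM in control 1 and 0.373 CPM in control 2. Ltbp3 was at 64.1 CPM in mutant 2, close to its endothelial level of 65.7 CPM there, against 12.15 and 4.1 CPM in the controls. Ltbp4 was at 16.6 CPM against 1.69 and 0.746 CPM. Fbln5 was at 7.95 CPM against 28.35 and 0.746 CPM, and Eln at 13.3 CPM against 28.35 and 3.36 CPM. The part of free RNA in the member differences was not tested.

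**Figure D4:**
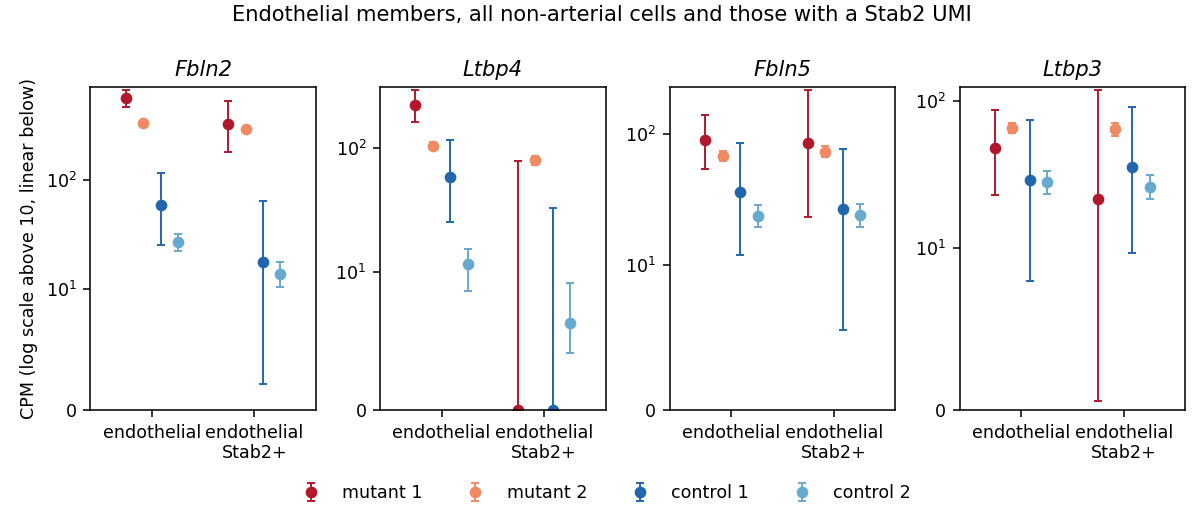
CPM of Fbln2, Ltbp4, Fbln5 and Ltbp3 in all endothelial cells apart from arterial ones and in those with a Stab2 UMI, with 1 point per library (mutants left of controls) and exact 95% Poisson intervals; the axis is logarithmic above 10 and linear below. Fbln2 is at 320 CPM (from 7 cells) and 290 CPM in the Stab2 cells of the mutants against 17.7 and 13.6 CPM in those of the controls.

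**Figure D5:**
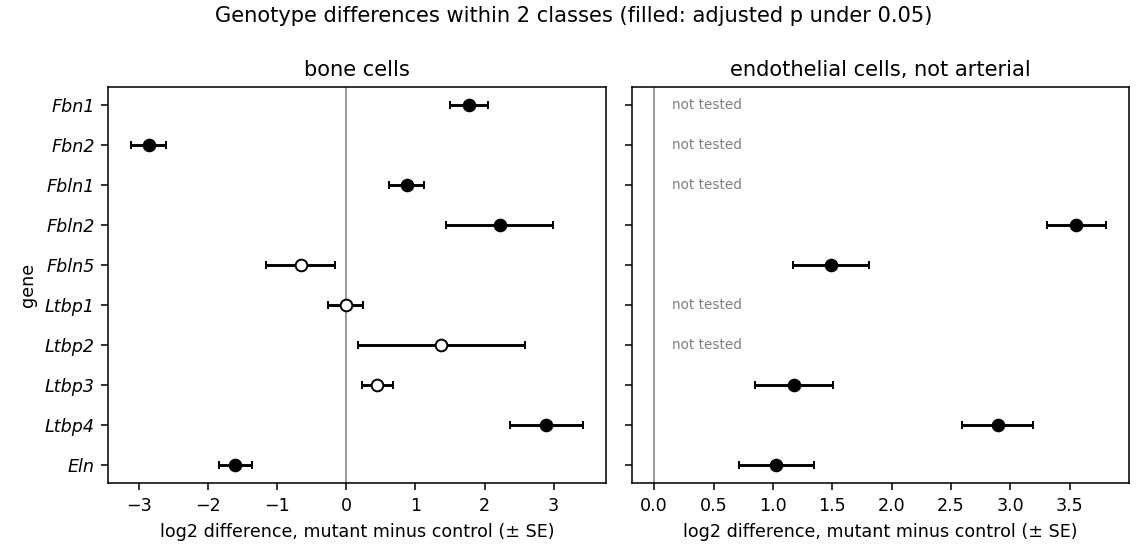
Log2 difference, mutant minus control, with its SE, for each gene in bone cells (left) and endothelial cells apart from arterial ones (right); filled points passed an adjusted p of 0.05, and genes below the filter on low counts are written as not tested. Fbn2 is the lowest bone point at -2.86 and Fbln2 the highest endothelial point at 3.56.

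Summed over the stromal, bone, chondrocyte and perivascular gates, the mesenchyme of mutants and controls differed in its makeup: stromal cells were 1.91% and 1.002% of it in the mutants against 77.4% and 44.2% in the controls. This sum called 2 members higher, 5 lower and 3 neither, beside 23.7% of 14110 genes. Of these, the Eln call is lost under 5 of 13 alternatives (-0.11 without the highest cells, adjusted p = 0.897, and without each library in turn) and the Fbln2 call under 2 (without mutant 1, adjusted p = 0.116, and without control 1, adjusted p = 0.0885). Ltbp2 stood at 0.748 and 1.33 CPM in mutant mesenchyme against 66.9 and 61.7 CPM in control mesenchyme (log2 difference -5.68 ± 0.27, adjusted p = 1.60e-04, edgeR). Fbln5 stood at 6.31 and 5.85 CPM against 235 and 103 CPM (-4.37 ± 0.27, adjusted p = 2.95e-04). Fbn1 was lower in mutant mesenchyme (59.1 and 47.1 CPM against 652 and 265 CPM; -2.65 ± 0.24, adjusted p = 8.22e-04) although it was higher in mutant bone cells. Here the number of stromal cells and the RNA per cell cannot be told apart. Of the UMIs of all 10 genes together, stromal cells held 6.00% and 2.78% in the mutants against 82.7% and 34.1% in the controls, bone cells 57.9% and 41.7% against 5.69% and 7.32%, and endothelial cells 1.49% and 35.7% against 0.1496% and 24.4%.

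The genotype difference in bone was set against that in endothelial cells as an interaction term. Among 9 members tested 0 were higher, 2 were lower and 7 did not pass, beside 3.74% of 12830 genes called (1.60% higher and 2.14% lower). Fbln5 (log2 interaction -2.49 ± 0.71, adjusted p = 0.0185, edgeR) and Eln (-2.92 ± 0.48, adjusted p = 3.87e-07) were the 2 members. The estimated prior degrees of freedom were infinite in this fit too, so these p-values rest on a spread shared by genes of like abundance. With the highest cell of each library left out both calls are lost (adjusted p = 0.644 for Fbln5 and 0.912 for Eln). For Fbln2 the term was -0.90 ± 0.98 (adjusted p = 0.809), so its genotype differences in the 2 classes were not shown to differ.

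Of the other genes of the pathway, 3 lists were counted. In bone cells, the 23 genes of microfibril and elastic fibre assembly had 18 tested, of which 2 were higher in the mutants and 4 lower, beside 12.7% and 9.60% of all genes tested in bone cells. Emilin2, an elastic-fibre-associated glycoprotein, had 3.32 and 2.62 CPM in the mutants against 0.321 and 0 CPM in the controls (3.39 ± 0.89, adjusted p = 0.00539, edgeR). Vcan, a large proteoglycan that binds fibrillin, was called lower (-1.002 ± 0.20, adjusted p = 4.13e-04, edgeR). It had 57.0 and 117 CPM in the mutants against 89.1 and 234 CPM in the controls, values that overlap. Adamts17, a metalloprotease of the microfibril-binding group, was lower, at 5.20 and 8.22 CPM against 12.3 and 15.9 CPM (-1.31 ± 0.29, adjusted p = 0.00127). The median of the list was -0.23 beside 0.04 over all genes. The 20 ligands, activators and receptors of TGF-beta had 19 tested, with 5 higher and 3 lower, beside the same shares. The activator Thbs1 had 30.7 and 36.7 CPM in mutant bone cells against 80.6 and 234 CPM in the controls (-2.20 ± 0.25, adjusted p = 3.71e-08), and the ligand Tgfb2 66.2 and 37.9 CPM against 7.21 and 24.3 CPM (2.03 ± 0.36, adjusted p = 7.88e-05). The co-receptor Eng had 15.8 and 15.1 CPM in mutant bone cells against 4.81 and 2.11 CPM in the controls (1.74 ± 0.34, adjusted p = 2.19e-04). The 16 TGF-beta response genes, all tested, had 3 higher and 2 lower, again beside those shares; the cell cycle inhibitor Cdkn2b was higher (27.9 and 14.6 CPM against 4.97 and 0 CPM; 2.55 ± 0.35, adjusted p = 1.68e-06) and the matrix protein Tgfbi lower (4.21 and 11.2 CPM against 16.4 and 14.8 CPM; -1.56 ± 0.31, adjusted p = 2.65e-04). Col1a1, the main bone collagen, was lower, at 32810 and 42720 CPM against 88910 and 98800 CPM (-1.51 ± 0.08, adjusted p = 1.42e-15).

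In endothelial cells the assembly list had 4 higher and 2 lower of 12 tested, the ligand and receptor list 3 higher and 1 lower of 15, and the response list 5 higher and 0 lower of 14, beside 2.75% higher and 3.06% lower of all 10710 genes. The response list includes the bone and fibroblast gene Col1a1, at 209 and 1482 CPM in mutant endothelial cells against 58.3 and 17.6 CPM in the controls. The part of bone cell RNA in these counts was not tested. The microfibril protein Mfap2 had 71.3 and 62.0 CPM in mutant endothelial cells against 0 and 7.35 CPM in the controls (3.18 ± 0.39, adjusted p = 5.78e-14, edgeR). The lysyl oxidase Loxl2, which cross-links collagen and elastin, was lower, at 99.8 and 102.5 CPM against 284 and 311 CPM (-1.57 ± 0.23, adjusted p = 5.47e-10). Fibronectin (Fn1), on which microfibrils assemble, was called lower (-1.25 ± 0.22, adjusted p = 6.35e-07) with 485 and 87.3 CPM in the mutants against 444 and 396 CPM in the controls, values that overlap. Among response genes Pmepa1, a target and inhibitor of TGF-beta signalling, had 404 and 295 CPM in the mutants against 94.7 and 71.9 CPM in the controls (2.06 ± 0.23, adjusted p = 1.19e-16). Bmp1, a protease that processes procollagen and matrix proteins, had 90.3 and 56.5 CPM in the mutants against 21.9 and 15.6 CPM in the controls (1.88 ± 0.34, adjusted p = 2.43e-06). The integrin subunit Itgb1 was higher (1070 and 783 CPM against 502.5 and 557 CPM; 0.75 ± 0.20, adjusted p = 0.00396) and the co-receptor Tgfbr3 lower (47.5 and 82.9 CPM against 153 and 125 CPM; -0.79 ± 0.24, adjusted p = 0.0243).

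Between stromal and bone cells the assembly list had 5 genes higher in stromal cells and 3 lower of 19 tested, beside 13.7% higher and 14.9% lower of all 12034 genes. Loxl1, a lysyl oxidase that acts on elastin, had 216 and 199 CPM in mutant stromal cells against 297 and 326 CPM in control ones, and stood 3.60 ± 0.26 (log2) above bone cells in the 3 libraries tested (adjusted p = 1.24e-05, edgeR). Tgfbr3, the TGF-beta co-receptor betaglycan, had 113 and 109 CPM in mutant stromal cells against 545 and 596 CPM in control stromal cells.

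The genes whose levels were most like each member were sought by Pearson correlation of log2(CPM + 1) over 14 class-by-library sums and 9052 genes. The sums share libraries and classes, so these r are a description. Fbn1 was nearest to the stromal transcription factor Ebf1 (r = 0.978), Fbn2 to Spon1 (0.975), Fbln1 to Lhfp (0.965), Fbln2 to Sox11 (0.969), Fbln5 to Spry1 (0.969), Ltbp1 to Gpx8 (0.965), Ltbp2 to Kcne4 (0.991), Ltbp3 to Islr (0.920), Ltbp4 to Cplx2 (0.954) and Eln to Id3 (0.890). Ly6c1, a surface antigen of endothelial and myeloid cells, was among the 3 nearest genes of both Fbln2 (0.966) and Ltbp4 (0.949).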

How the data were processed

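Unnormalized UMI counts per gene and barcode were deposited by the authors for sorted marrow cells of 2 mutant and 2 control libraries, per the file headers. The submitters' processing notes name Cell Ranger and build mm10, with version 5.0.1 for mutant 1 and control 1 and 6.1.2 for mutant 2 and control 2. The headers name Cell Ranger 4 for mutant 2, control 1 and control 2. Mutant 1 lists 3352 barcodes with at least 501 UMIs, and mutant 2, control 1 and control 2 list barcodes down to 1 UMI. The median UMI count of kept cells was 16445 and 10186 in mutant 1 and mutant 2, and 15058 and 24080 in control 1 and control 2.

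Counts were summed per library and gated class and compared by the quasi-likelihood test of edgeR 4.0.16 under R 4.3.3 (two-sided, filterByExpr, TMM scaling, Benjamini-Hochberg threshold 0.05 over all tested genes). Genotype fits had genotype and processing version in the model and 1 residual degree of freedom left. Class fits had library as a block. The prior degrees of freedom, the weight of the spread shared across genes, were 5.84 for the genotype fit of mesenchyme and 31.9 for that of bone cells. They were infinite for endothelial cells and for the interaction. Classes with under 20 cells in a library were not tested between genotypes. SE is the log2 difference divided by the square root of F. Intervals of levels are exact Poisson and those of shares exact binomial (95%), for counting error only. Shares were compared after thinning each cell to 1000 UMIs, by exact permutation of the 4 libraries. Scripts were tested on simulated data. Doublets were left in; an alternative removed those that Scrublet (scanpy 1.11.5) ranked highest, 0.8% per 1000 cells. DESeq2 1.42.0 was another alternative. Cells that passed the stromal and the bone gate together were left out. Promoter windows came from RefSeq (GRCm38.p6) and positions from GENCODE M21 (mm10).

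All 10 members are named, and of the other pathway genes those with the 3 smallest adjusted p per list are named for the genotype differences in bone and in endothelial cells, except 1 that is not reported here; Loxl1 and Tgfbr3 are named from the same ranking for stromal minus bone. The members, lists, markers and tests were chosen with earlier results of these data known.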

Additional observations from a re-analysis of the deposited data

Results flagged for a closer look

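For 2 genes the genotype difference in bone cells differed from that in endothelial cells by the test of the interaction term (edgeR, Benjamini-Hochberg over 12830 genes). The Fbln5 term was -2.49 on the log2 scale (adjusted p = 0.0185): bone cells had 3.14 and 2.54 CPM in the mutants against 3.37 and 6.34 CPM in the controls, and endothelial cells 90.3 and 68.2 CPM in the mutants against 36.4 and 23.8 CPM in the controls. The 6 bone UMIs of control 2 all came from 1 cell. The Eln term was -2.92 (adjusted p = 3.87e-07): bone cells had 7.68 and 13.9 CPM in the mutants against 21.3 and 35.9 CPM in the controls, and endothelial cells 99.8 and 57.5 CPM against 29.1 and 31.2 CPM. With the highest cell of each library left out the terms were -1.12 (adjusted p = 0.644) for Fbln5 and -0.33 (adjusted p = 0.912) for Eln.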

How the results depend on the processing

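The direction and the call of the following held under every alternative that could be fitted: Fbn1, Fbn2, Fbln5, Ltbp2 and Ltbp4 in mesenchyme, Fbn2 in bone cells and Fbln2 in endothelial cells. Counts of genes called moved more. Without the processing term they were 1884 in mesenchyme, 1061 in bone and 238 in endothelial cells, against 3351, 2885 and 622. DESeq2 called 1172 in bone, 131 in endothelial cells and 145 for the interaction, against 2885, 622 and 480. Leaving out 1 library gave 546 to 1731 in mesenchyme, 20 to 1458 in bone, 68 to 593 in endothelial cells, 3609 to 5057 for bone minus endothelial, 1041 to 5715 for stromal minus bone and 130 to 403 for the interaction. Arterial minus other endothelial gave 63, against 555 with no filter on low counts, 193 with at least 3000 UMIs per cell and 571 without Scrublet doublets; it could not be fitted with a gate of 4 markers or with a library left out, nor could endothelial cells with a Stab2 UMI. Turned signs occurred for members not called in the first place. In mesenchyme Fbln1 ran from -0.84 to 0.84 and Ltbp1 from -0.94 to 0.12 with 1 library left out, and Fbln1 was 0.0078 without the highest cells. In bone Ltbp1 ran from -0.55 to 0.34 with 1 library left out (0.0044 without control 2), and was 0.042 with no filter and 0.067 without the highest cells, where Fbln5 was 0.27. For stromal minus bone Eln ran from -0.59 to 1.95 with 1 library left out. For the interaction Fbn1 ran from -8.31 to 1.58 and Fbln2 from -1.19 to 4.40; Fbn1 was -0.69 with DESeq2 and Fbln2 0.071 with a gate of 4. The cause was not tested. The processing term sets mutant 1 with control 1 and mutant 2 with control 2 by the submitters' notes; replicate numbers only name libraries, so they were not used to pair them. Thin classes (13 stromal cells in mutant 2, 24 endothelial cells in control 1) limit what these levels can show.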
